A study of Homo sapiens with 36 samples.

Results

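The comparison examined here asked which genes responded differently to cobalt(II) chloride (CoCl2) in Caco-2 and HT-29 cells, both established human colorectal cancer cell lines. For each gene, the log2 change between CoCl2-treated and control HT-29 cells was set against the log2 change between CoCl2-treated and control Caco-2 cells, and the difference between these changes is called the interaction below. The members are the genes that changed in opposite directions, together with those that changed in 1 line while the other line stayed near its control level. There were 1371 such genes among 17921 tested, and they were drawn from the 12844 genes detected in both lines.

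The series held 36 libraries, 18 of mRNA and 18 of miRNA, and 12 mRNA libraries entered the contrast, 3 replicates in each of 4 groups. The Caco-2 cells had been kept for 21 days so that they differentiated, which turns this line towards an enterocyte phenotype, whereas the labels state no differentiation for the HT-29 cells and name a different growth medium. In both lines the CoCl2 groups received 300 µM for 24 h and the control groups received dimethyl sulfoxide (DMSO) at 0.5 µl per ml of medium. Further groups of each line received an oxyquinoline derivative (OD) at 5 µM for 24 h with that same amount of DMSO; these groups shared the controls with the CoCl2 groups and are given only as values placed beside them. The labels name no DMSO for the CoCl2 groups, whereas the study's methods do, so whether solvent differed from the controls could not be settled here. Cell line, culture state and medium cannot be told apart in any comparison between the lines.

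CoCl2 is a hypoxia mimetic. It inhibits the prolyl hydroxylases by which cells tag hypoxia-inducible factor (HIF) for destruction, so that HIF accumulates and switches on genes of glucose uptake, glycolysis, pH control and mitophagy in the presence of oxygen. Cobalt ions also induce genes of the oxidative and metal stress responses, and immediate early genes such as FOS and EGR1 answer to growth factor signalling through the ERK kinases.

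The 12 libraries held between 12925719 and 22332639 counts, and the 20 most abundant genes took 8.80 to 14.7% of them. The TMM scaling factors, which correct for such differences in composition, averaged 1.14 in both control groups, 0.909 in Caco-2 with CoCl2 and 0.794 in HT-29 with CoCl2. Within groups, Caco-2 CoCl2 replicate 1 differed more from replicates 2 and 3 (chi-square per degree of freedom 8.79 and 10.7) than these did from each other (3.42), and HT-29 Control replicate 3 more from 1 and 2 (6.10 and 5.00) than these from each other (1.99). Without the first there were 81 opposite, 1088 HT-29-only and 221 Caco-2-only genes, and without the second 79, 1082 and 204. The lines were clearly separate, since AFP, a fetal liver protein made by Caco-2 cells, was at 4361 to 6648 CPM (counts scaled to the size of the library) in every Caco-2 library and at no more than 0.217 in any HT-29 library. All 6 epithelial markers, EPCAM and CDH1 among them, were present in both lines. The summed enterocyte markers stood at 3622 to 4058 CPM in control Caco-2 and 4151 to 4892 with CoCl2, against 245 to 250 in control HT-29 and 43.9 to 52.2 with CoCl2, and ALPI, APOA1 and APOA4 were at 16 counts or fewer in each of these HT-29 libraries. APOA1 made up most of the Caco-2 sum, at 36014 to 41477 counts in the controls and 47788 to 64746 with CoCl2. APOA4 also rose in Caco-2, whereas ALPI fell there and VIL1, SI and FABP1 fell in both lines. In Caco-2, SI held 4234 to 4759 counts in the controls and 1131 to 2203 with CoCl2.

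A gene was called where edgeR's quasi-likelihood test gave a false discovery rate (FDR) below 0.05 together with a log2 change beyond 1 in size. The interaction was called for 3875 genes, 21.6% of those tested. The HT-29 change lay above the Caco-2 change for 1396 (7.79%) and below it for 2479 (13.8%). CoCl2 by itself raised 1675 genes in Caco-2 (9.35%) and lowered 2558 (14.3%), and in HT-29 it raised 2538 (14.2%) and lowered 4470 (24.9%). These splits depended on the scaling: 36.0% of the interaction calls lay above with TMM and 23.2% with library size alone, under which the median change over all genes tested moved from -0.15 to -0.67 in HT-29 and from -0.02 to -0.34 in Caco-2. With bulk RNA, fewer cells of a kind and less RNA in each cell cannot be told apart.

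Opposite responses were found in 77 genes. In 25 of them HT-29 rose while Caco-2 fell, with median log2 changes of 1.48 and -1.29, and in the other 52 HT-29 fell while Caco-2 rose, with medians of -1.74 and 1.41. A response in HT-29 alone, meaning a called change there, a called interaction and a log2 change under 0.5 in size in Caco-2, was found for 1077 genes, of which 375 rose and 702 fell. The corresponding set for Caco-2 held 217 genes, 121 higher and 96 lower. The limit of 0.5 left room for small changes in the other line. Control and CoCl2 libraries lay apart in Caco-2 for 166 of the 375 and 250 of the 702 HT-29-only genes. In HT-29 they lay apart for 56 of the 121 and 34 of the 96 Caco-2-only genes. The remaining interaction calls comprised 465 genes that changed in the same direction by different amounts, 420 of them more in HT-29, another 1126 that met none of these definitions, and 913 that were not detected in both lines. Because these same fits set the classes, their sizes and medians describe the members and test nothing.

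**Figure D1:**
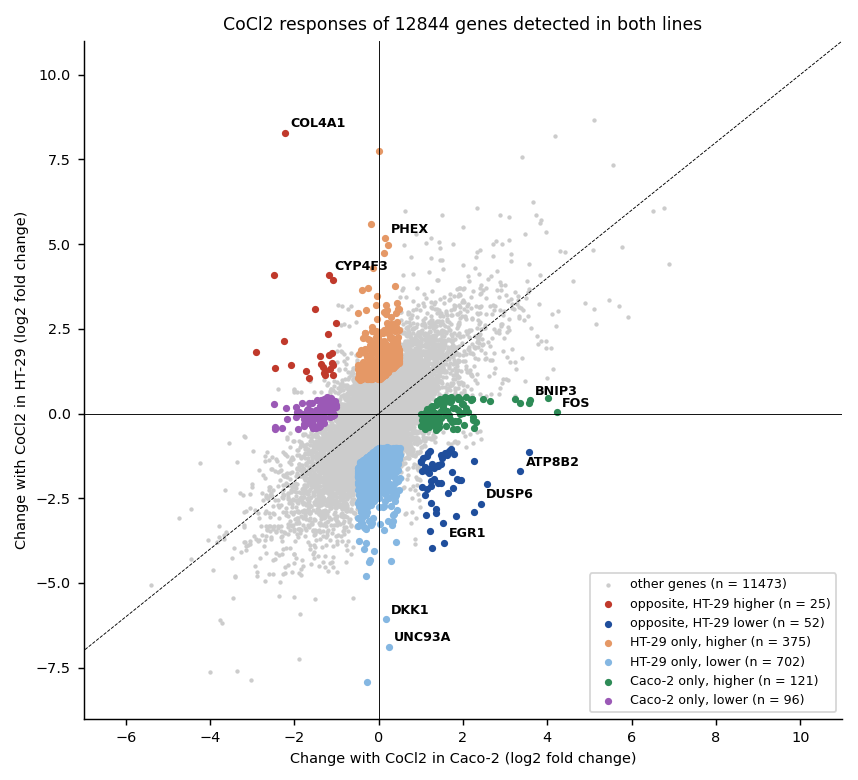
Each point is 1 of 12844 genes detected in both lines, with the log2 fold change with CoCl2 in Caco-2 on the horizontal axis and in HT-29 on the vertical axis. Coloured points are the 6 classes of members, grey points are all other genes, and the dashed line marks equal changes; EGR1, DUSP6 and ATP8B2 lie at lower right, and COL4A1 and CYP4F3 at upper left.

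In the plot of both responses the classes lie where their definitions put them, and their edges were not gaps in the data. Among the opposite genes, CAVIN4 fell by 1.01 in Caco-2 on the log2 scale and was just inside the limit, while PLEKHA4, at -0.999 in HT-29, was just outside. LINC01311 and KDM4C, at -0.50 and 0.50 in Caco-2, stood on either side of the HT-29-only limit. For the Caco-2-only limit these were TWF1P1, at 0.49 in HT-29, and PHLDA2, at 0.51.

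The 52 genes that fell in HT-29 and rose in Caco-2 held 3 of the 20 members tested of the ERK and AP-1 list, EGR1, DUSP6 and DUSP4. This class took up 0.405% of the genes detected in both lines. EGR1, an immediate early transcription factor, was at 6.98, 8.49 and 8.59 CPM in the Caco-2 controls and at 22.8, 24.0 and 22.8 with CoCl2, while in HT-29 it went from 128, 165 and 172 down to 12.4, 10.3 and 10.5. In both lines all CoCl2 libraries lay apart from the controls, and after treatment the line that had started far lower was the higher one. The log2 change was 1.54 (SE 0.12) in Caco-2 and -3.81 (SE 0.10) in HT-29, and the interaction was -5.35 (SE 0.16, FDR = 1.4e-23). DUSP6, the phosphatase that switches ERK off and is itself induced by ERK, was at 9.72, 10.6 and 9.75 in the Caco-2 controls and 52.7, 52.7 and 54.9 with CoCl2, against 118, 138 and 138 and then 21.3, 20.7 and 20.2 in HT-29. Its changes of 2.42 and -2.66 gave an interaction of -5.08 (SE 0.12, FDR = 1.8e-25). DUSP4, a nuclear phosphatase of the same family, changed by 1.61 and -1.21, with an interaction of -2.82.

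The promoter of EGR1 is shown because serum response factor, through which ERK signals reach immediate early genes, binds the CArG box, and the promoter of AREG because cAMP-response-element factors bind the palindrome it carries. Both are 250 bases that end just before the RefSeq start of the gene (GRCh38.p14, sense strand, 5′ to 3′). Capitals mark CArG boxes (CC, 6 bases of A or T, GG) and the hypoxia core ACGTG on either strand in EGR1, at chr5:138465229-138465478, and the letters TGACGTCA in AREG, at chr4:74444886-74445135.
EGR1: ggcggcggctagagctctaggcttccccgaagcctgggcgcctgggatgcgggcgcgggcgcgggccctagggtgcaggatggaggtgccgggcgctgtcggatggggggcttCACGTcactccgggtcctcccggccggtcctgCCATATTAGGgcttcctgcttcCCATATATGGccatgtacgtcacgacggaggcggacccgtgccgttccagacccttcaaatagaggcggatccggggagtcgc
AREG: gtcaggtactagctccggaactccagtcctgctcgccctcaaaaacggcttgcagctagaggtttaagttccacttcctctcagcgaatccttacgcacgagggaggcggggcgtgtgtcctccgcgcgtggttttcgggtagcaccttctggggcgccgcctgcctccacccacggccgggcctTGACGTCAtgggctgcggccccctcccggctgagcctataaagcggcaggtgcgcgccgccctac
The EGR1 window held CArG boxes 105 to 96 and 83 to 74 bases before the start, and the AREG window held its palindrome 65 to 58 bases before the start. A match of letters is a description and does not show binding.

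AREG and EREG, amphiregulin and epiregulin, are ligands of the EGF receptor that lie near each other on chromosome 4, and both belonged to this class. AREG was at 24.5, 22.3 and 21.1 CPM in the Caco-2 controls and 62.4, 64.5 and 67.7 with CoCl2, against 293, 386 and 426 and then 37.1, 40.4 and 41.0 in HT-29. Its interaction was -4.74 (SE 0.15, FDR = 3.8e-23). EREG was at 11.8, 8.49 and 11.1 and then 25, 25.9 and 24.4 in Caco-2, against 233, 285 and 336 and then 17.1, 18.8 and 18.6 in HT-29. No control library overlapped a CoCl2 library of the same line for either ligand. HBEGF, another ligand that is shed from the cell surface, changed by 1.96 in Caco-2 and -1.95 in HT-29.

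The other EGF receptor genes did not share this pattern. In a list of ligands and receptors that was chosen after these values were seen, the interaction was called below for 4 of 9 genes tested (AREG, EREG, HBEGF and ERBB2) and above for 1, EGF itself, which went from 2.01, 1.14 and 1.23 to 32.9, 35.6 and 35.8 CPM in HT-29 and from 11.4, 10.5 and 10.1 to 17.1, 17.3 and 19.9 in Caco-2. Leaving out Caco-2 CoCl2 replicate 2 made that count 2. The receptor EGFR fell in both lines, with log2 changes of -1.25 and -1.82, and its interaction of -0.58 was within the limit of 1. The list medians were -0.27 in Caco-2 and -1.31 in HT-29, beside -0.02 and -0.15 over all genes tested. Of all genes tested, 13.8% had an interaction called below and 7.79% above.

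Values with OD differed among these genes. In HT-29 the mean for EGR1 was 5.28 CPM with OD (log2 change against the shared controls, -4.88), below its level with CoCl2, whereas AREG averaged 313 (-0.23) and EREG 255 (-0.16), near their control levels. In Caco-2 OD went with a log2 change of -0.64 for EGR1 and 0.15 for AREG, beside increases with CoCl2.

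The rule for named genes gave 2 more genes of this class, by the size of the interaction. MAPT, which encodes the microtubule protein tau, was at 0.801, 0.855 and 0.613 and then 2.38, 3.21 and 5.04 in Caco-2, against 2.07, 2.34 and 2.26 and then 0.362, 0.268 and 0.240 in HT-29, all low levels. ATP8B2, a phospholipid flippase, went from 6.23, 10.3 and 7.16 to 80.5, 87.3 and 74.6 in Caco-2 and from 3.21, 3.94 and 4.32 to 1.38, 0.939 and 1.28 in HT-29, with an interaction of -5.07 (SE 0.25, FDR = 9.5e-18). MAPT overlaps an antisense gene, and whether strand was used in counting is not given in the sources used here.

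Further members of the class came from the gene lists. ID1, a BMP target that blocks basic helix-loop-helix factors, went from 3.26, 2.57 and 4.09 to 20.8, 18.3 and 20.0 CPM in Caco-2 and from 60.2, 65.9 and 70.7 to 16.5, 13.9 and 16.4 in HT-29 (interaction -4.66, SE 0.17). CCND1, the G1 cyclin D1, went from 93.1, 85.3 and 94.8 to 224, 210 and 209 in Caco-2 and from 83.4, 78.1 and 77.3 to 13.1, 12 and 13.6 in HT-29. MYC, a growth-promoting transcription factor, went from 43.6, 39.5 and 47.9 to 110, 93.0 and 105 in Caco-2 and from 162, 170 and 177 to 45.1, 41.8 and 42.5 in HT-29. For CCND1 the control libraries of the lines stood close together and treatment drew them apart, whereas for MYC and ID1 the line with the higher level changed over. The interaction was -3.86 for CCND1 and -3.21 for MYC. CXCR4, a chemokine receptor, changed by 3.57 and -1.13, EDN1, the vasoconstrictor endothelin 1, by 1.21 and -3.46, and PTGS2, the inducible cyclooxygenase, by 1.10 and -2.41. Of the genes in this paragraph and the ligands, EREG, MYC, CCND1, EDN1 and PTGS2 did not meet the opposite definition with library size alone, and PTGS2 also failed it without Caco-2 Control replicate 1 or Caco-2 CoCl2 replicate 2, although each interaction stayed called.

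Over the whole class of 52, the mean level was higher in HT-29 than in Caco-2 for 42 genes in the controls and for 11 with CoCl2. For the 25 genes of the reverse class these counts were 3 and 19. For 12844 genes detected in both lines they were 6771 and 6433. With limma-trend run on the authors' log2 table, which tested 35 of the 52 and 11 of the 25, the opposite definition was met by 15 and 1 of them, while the interaction was called on the same side for 34 and 11. ATP8B2, DUSP4, EREG, EDN1, PTGS2, CYP4F3, TRPV3 and PRDM1 were among those that left. The crossing follows in part from the definition, which asks for changes in opposite directions.

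Of the 25 genes that rose in HT-29 and fell in Caco-2, COL4A1 had the largest fitted interaction among those named by the rule. COL4A1, a chain of basement membrane collagen, was at 5.78, 6.19 and 6.68 CPM in the Caco-2 controls and 0.492, 1.5 and 1.75 with CoCl2, and at 0, 0.114 and 0 in the HT-29 controls, then 13.7, 13.4 and 12.7. Over the HT-29 controls this was 2 counts, and the ratio of CoCl2 to control was 383 (95% exact interval of counting error 106 to 3174), so the fitted interaction of 10.52 depends on the prior count. Its partner COL4A2, which begins beside it on the opposite strand (chr13:110305812-110513209, plus strand, against chr13:110148963-110307157, minus strand) and overlaps it there, changed by 0.10 and -0.78, and its interaction of -0.89 was not called. That interaction passed the limit with library size alone, at -1.09, and without Caco-2 CoCl2 replicate 2, at -1.04.

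CYP4F3, a cytochrome P450 that inactivates leukotriene B4, went from 39.2, 33.0 and 33.9 to 16.2, 15.4 and 15.4 in Caco-2 and from 1.81, 2.00 and 1.98 to 32.9, 35.0 and 30.9 in HT-29, so that treatment reversed which line was higher. The interaction was 5.26 (SE 0.17, FDR = 7.3e-23). Reads could be shared with closely related members of its family. TRPV3, a warmth-gated cation channel, went from 9.95, 10.7 and 9.41 to 4.26, 2.50 and 3.82 in Caco-2 and from 1.61, 2.68 and 2.62 to 22.3, 21.1 and 16.9 in HT-29 (interaction 4.59, SE 0.25). TMEM86B, a lysoplasmalogenase, changed by -1.40 and 1.70, and PRDM1, the transcriptional repressor Blimp-1, by -1.10 and 1.78. With OD, too, CYP4F3 was at -1.55 in Caco-2 and 3.01 in HT-29 against the shared controls.

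**Figure D2:**
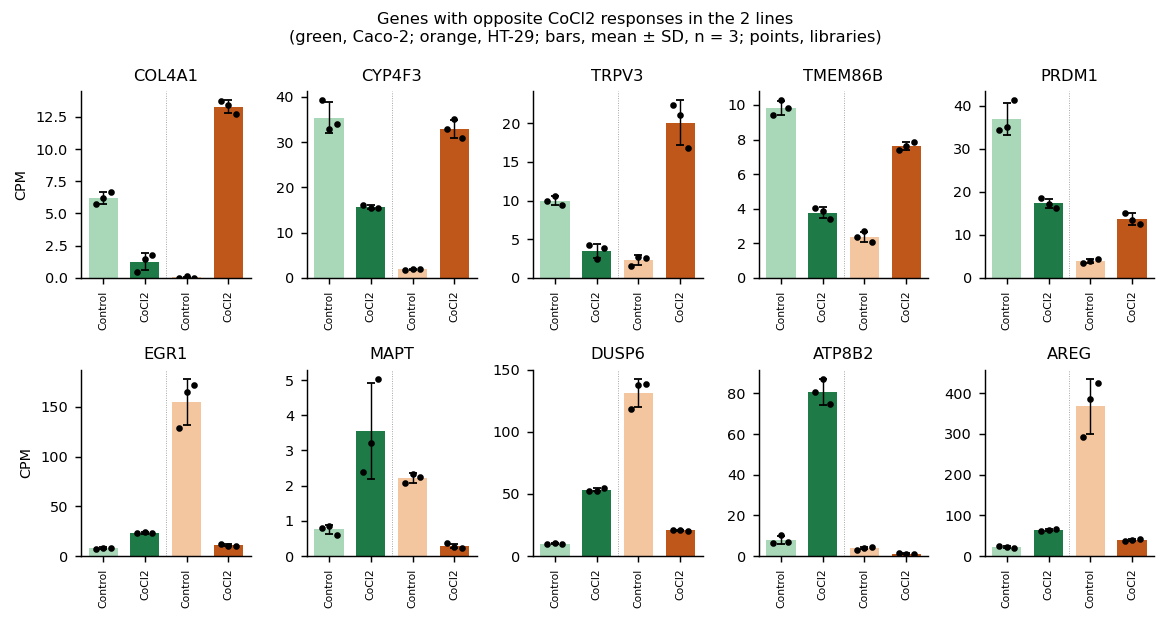
CPM on linear axes from 0, each gene on its own scale, in Control and CoCl2 libraries of Caco-2 (green) and HT-29 (orange); bars are means, error bars SD, points the 3 libraries. In the upper row the HT-29 bar rises while the Caco-2 bar falls, as for CYP4F3 (15.4 to 16.2 in Caco-2 and 30.9 to 35.0 in HT-29 with CoCl2), and in the lower row the reverse holds, as for EGR1.

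In the bars of these 10 genes, no Control point reaches the range of the CoCl2 points of its line. This was a condition of the rule that named them.

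Of the lists, the one for ERK and AP-1 signalling, whose members are immediate early factors and feedback inhibitors, held the most interaction calls below: 14 of 20, with 1 above, FOSL2. Its median change was 1.34 in Caco-2 and -0.07 in HT-29. Of all genes tested, 13.8% had an interaction below and 7.79% above. Members of one role did not all move alike. Among the AP-1 factors, FOSL1 rose by 5.15 in Caco-2 against 2.63 in HT-29, and JUN by 3.17 against 1.90, so these rose in both lines and by less in HT-29. FOS rose in Caco-2 alone, from 4.97, 4.8 and 3.07 CPM to 85, 79.0 and 79.4, while in HT-29 it was at 48.4, 62.3 and 66.7 and then 61.7, 61.7 and 60.1, where the groups overlapped. The FOS interaction was -4.19 (SE 0.16, FDR = 3.0e-21). Of the feedback inhibitors, SPRY2 fell in HT-29 beside the phosphatases above, at -1.65 there and 0.29 in Caco-2, whereas DUSP5, another phosphatase, rose in both lines, by 2.77 and 2.40. PHLDA1, a pleckstrin-homology protein, was at -2.05 in HT-29 and 0.20 in Caco-2.

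**Figure D3:**
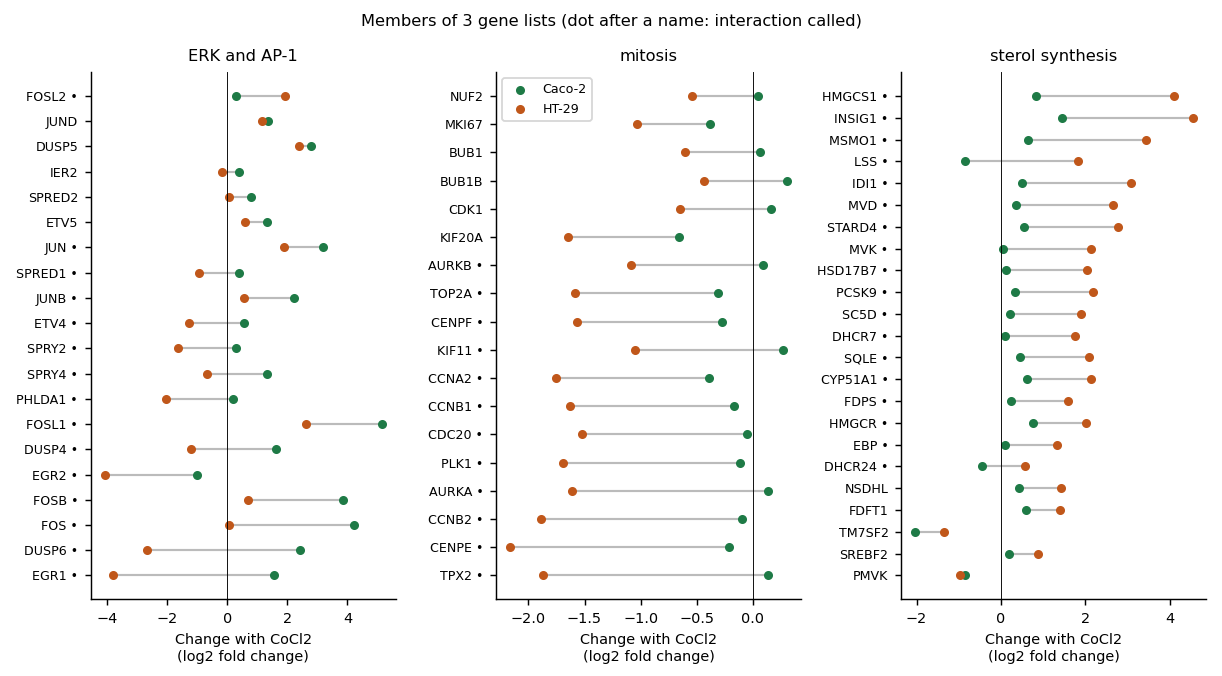
Log2 fold change with CoCl2 of each member of 3 gene lists, Caco-2 in green and HT-29 in orange, joined by a grey line, with 1 sterol gene left out; a dot after the name marks a called interaction. The ERK and AP-1 members lie mostly to the right in Caco-2 (median 1.34), the mitosis members to the left in HT-29 (median -1.57), and the sterol synthesis members to the right in HT-29 (median 2.02).

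Mitotic genes fell in HT-29, 14 of 18 of them, while 0 were called in Caco-2. Over all genes tested, CoCl2 lowered 24.9% in HT-29 and 14.3% in Caco-2. Of these 18 mitosis genes, 12 had an interaction called below and 0 above, and all 12 were HT-29-only members. Among all genes tested 13.8% were below and 7.79% above, and 5.47% of genes detected in both lines were HT-29-only lower. The list medians were -0.07 in Caco-2 and -1.57 in HT-29. TPX2, which targets Aurora A kinase to the spindle, was at 183, 178 and 201 CPM and then 205, 200 and 209 in Caco-2, against 344, 348 and 360 and then 96.3, 91.8 and 99.7 in HT-29. CCNB1, the mitotic cyclin B1, changed by -0.16 and -1.63, CENPE, a kinetochore motor, by -0.21 and -2.17, and TOP2A, which untangles chromosomes, by -0.31 and -1.58. With library size alone TOP2A and CENPE also changed by more than 0.5 in Caco-2 and left the HT-29-only class, with their interactions still called. Of DNA replication genes 0 of 21 were above and 5 below, and medians of 0.14 and -0.35; with library size alone 8 were below. OD went with a log2 change of -0.91 for TPX2 and -1.42 for CCNB1 in HT-29, and of 0.14 and -1.03 in Caco-2.

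The rule named 5 HT-29-only genes with an interaction below. DKK1, a secreted Wnt antagonist, was at 115, 94.3 and 119 and then 117, 116 and 135 in Caco-2, where the groups overlapped, and fell from 39.4, 39.9 and 44.3 to 1.09, 0.335 and 0.400 in HT-29 (interaction -6.24, SE 0.23, FDR = 3.0e-21). SOSTDC1, which antagonises BMP and Wnt ligands, fell from 11.2, 9.88 and 9.0 to 0.507, 0.604 and 0.320 in HT-29 and was at 0.915, 1.45 and 1.23 and then 1.15, 0.856 and 2.12 in Caco-2. Without Caco-2 CoCl2 replicate 2 it left the class. UNC93A, a transmembrane protein, fell from 3.21, 4.17 and 3.80 to 0, 0 and 0.0799 in HT-29, or 1 count in all, and the ratio of control to CoCl2 was 155 (exact interval 27.5 to 6152). EVL, an actin regulator, fell by 3.80 on the log2 scale. EVL left the class without Caco-2 Control replicate 3 or Caco-2 CoCl2 replicate 3. The long noncoding RNA LINC02038 held 8 counts over the HT-29 CoCl2 libraries, 10.1 times less than in the controls (exact interval 4.95 to 23.9), and changed by 0.32 in Caco-2.

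Of the Wnt targets, 5 of 14 had an interaction below and 0 above, beside 13.8% and 7.79% of all genes tested. The Wnt medians were -0.54 in Caco-2 and -1.37 in HT-29. DKK1 and SP5 were HT-29-only members and MYC an opposite one. Of BMP and TGF-beta targets, 6 of 9 were below and 1 above, SMAD6, which was lowered in both lines. Their medians were 0.69 and -0.96.

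Sterol synthesis genes rose in HT-29, 20 of 24, against 2 in Caco-2. Over all genes tested, CoCl2 raised 14.2% in HT-29 and 9.35% in Caco-2. Of these 24 sterol genes, 18 had an interaction above and 0 below, and 10 were HT-29-only members. Among all genes tested 7.79% were above and 13.8% below, and 2.92% of genes detected in both lines were HT-29-only higher. The sterol medians were 0.35 in Caco-2 and 2.02 in HT-29. HMGCS1, which makes the HMG-CoA that enters the pathway, was at 869, 780 and 794 CPM and then 1291, 1421 and 1595 in Caco-2, against 111, 105 and 108 and then 1785, 1974 and 1826 in HT-29. The control level was far lower in HT-29 and ended above Caco-2, and the interaction was 3.29 (SE 0.11, FDR = 6.6e-22). IDI1, the isoprenoid isomerase, changed by 0.49 and 3.07, and left the HT-29-only class without Caco-2 Control replicate 1 or Caco-2 CoCl2 replicate 1. INSIG1, which retains the sterol sensor in the endoplasmic reticulum, rose in both lines, by 1.45 and 4.54. LSS, lanosterol synthase, was at -0.86 in Caco-2 and 1.82 in HT-29.

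Genes of acetyl-CoA and fatty acid supply were also among the members. ACSS2, which makes acetyl-CoA from acetate, was at 220, 199 and 188 and then 204, 183 and 195 in Caco-2, where the groups overlapped, and rose from 28.0, 28.4 and 26.1 to 257, 258 and 249 in HT-29 (interaction 3.28, SE 0.11). FASN, fatty acid synthase, changed by -0.07 and 1.97. In the fatty acid synthesis list 3 of 9 were above and 0 below, beside 7.79% and 13.8% of all genes tested. Its medians were -0.23 and 1.06, and 5 were above with TMM within each line and with DESeq2. With OD, ACSS2 was at 0.70 and 3.82 in Caco-2 and HT-29, and HMGCS1 at 0.57 and 2.88.

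Lysosomal genes were examined as a list chosen after its values were seen. The interaction was above for 14 of 20 and below for 0, beside 7.79% and 13.8% of all genes tested. The list medians were -0.23 in Caco-2 and 0.98 in HT-29. CTSL, the protease cathepsin L, went from 3.28, 4.68 and 4.48 to 55.2, 53.9 and 57.1 CPM in HT-29 and from 85.8, 88.4 and 87.3 to 76.2, 68.0 and 74.7 in Caco-2, with an interaction of 3.97 (SE 0.13). NEU1, lysosomal sialidase, changed by -0.06 and 2.44. SMPD1, acid sphingomyelinase, was an opposite gene at -2.08 and 1.42, and so was the chloride transporter CLCN7 at -1.09 and 1.15. SMPD1 left the class with library size alone and with limma-trend, its interaction still called.

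Further HT-29-only genes came from the rule. PHEX, an endopeptidase of phosphate balance, was at 3.89, 3.68 and 3.68 and then 3.69, 4.21 and 4.51 in Caco-2 and rose from 0.535, 0.685 and 0.594 to 19.7, 24.2 and 22.5 in HT-29 (interaction 5.02, SE 0.30, FDR = 7.6e-16). PLPP3, a lipid phosphate phosphatase, was at 61.4, 61.4 and 67.0 and then 62.9, 60.2 and 61.3 in Caco-2 and rose from 3.21, 2.80 and 3.41 to 33.7, 35.5 and 35.2 in HT-29. AKR1B1, aldose reductase, held 7 counts over the HT-29 controls and was 33.0 times higher there with CoCl2 (exact interval 15.7 to 83.3), while Caco-2 held 15.8 to 19.4 and then 18.8 to 21.8 CPM. ZNF114, a zinc finger protein, changed by 0.38 and 3.77 and left the class without Caco-2 CoCl2 replicate 1. RBPMS2, an RNA-binding protein that lay outside the rule and was chosen after its values were seen, was at 0.801 to 1.84 CPM in the Caco-2 controls and 1.07 to 1.22 with CoCl2, and went from 0.201, 0.114 and 0.198 to 40.7, 38.2 and 36.5 in HT-29.

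**Figure D4:**
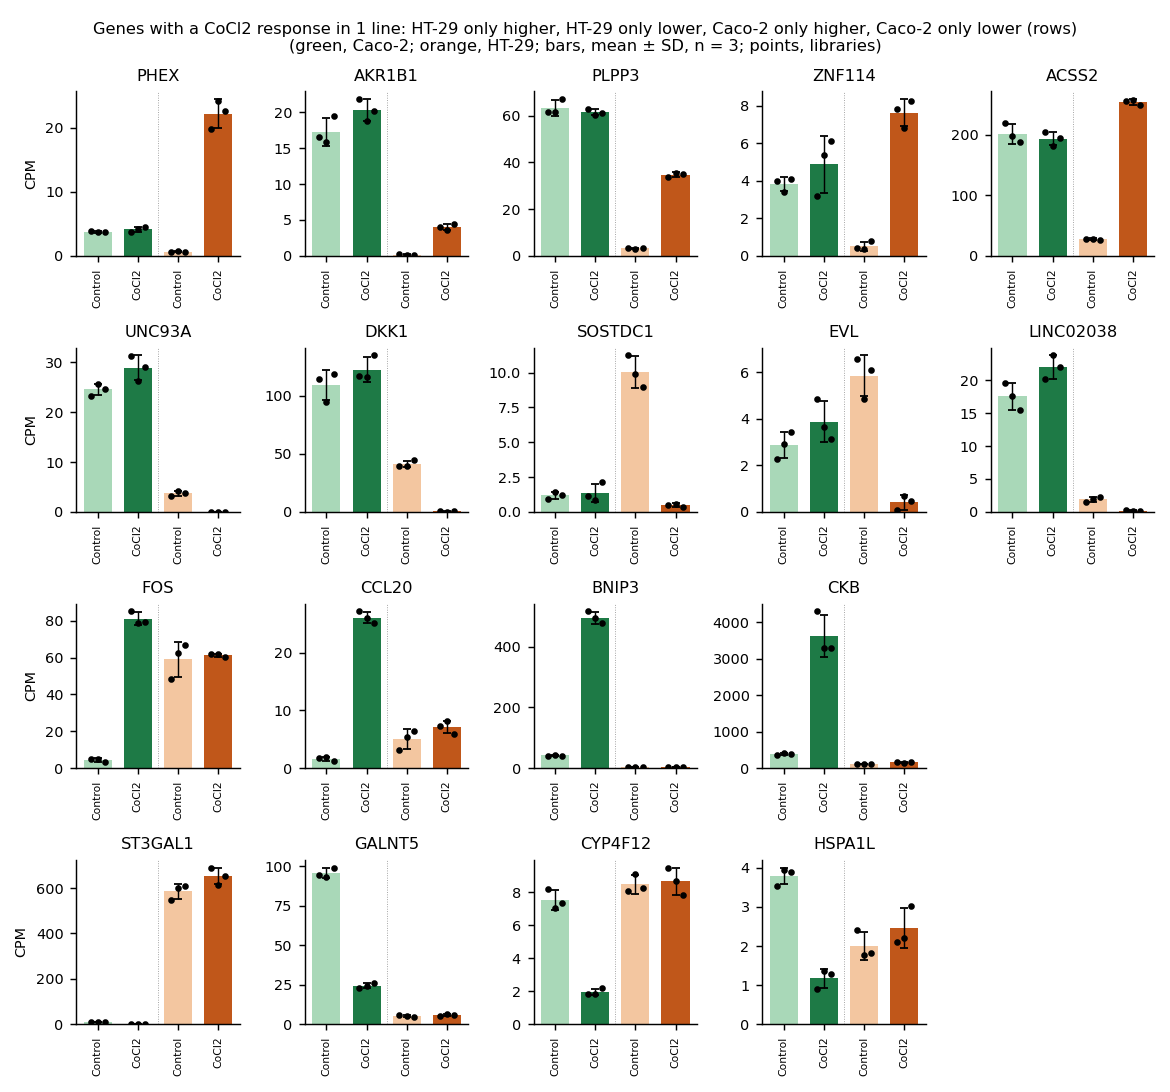
CPM on linear axes from 0, each gene on its own scale, for 18 genes called in 1 line, with Caco-2 in green and HT-29 in orange; bars are means, error bars SD, points the 3 libraries. From the top, rows show HT-29-only higher, HT-29-only lower, Caco-2-only higher and Caco-2-only lower genes; PHEX moves in orange bars (19.7 to 24.2 with CoCl2) and FOS in green bars (79.0 to 85 with CoCl2).

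The bars of these 18 genes also show how far the unresponsive line could sit from the responsive one. BNIP3, a HIF target that drives mitophagy, rose in Caco-2 from 40.5, 43.0 and 41.0 CPM to 517, 495 and 477, while HT-29 stayed at 2.34, 3.43 and 2.54 and then 3.91, 3.42 and 3.60, where 1 control library fell within the CoCl2 range. The interaction was -3.18 (SE 0.21, FDR = 2.1e-14). It left the class with TMM within each line and without HT-29 Control replicate 2. The BNIP3 promoter is shown for its hypoxia core. The 30 bases at chr10:131982040-131982069 (GRCh38.p14, minus strand) carry a palindrome that holds ACGTG on both strands, in capitals, from 134 to 129 bases before the start.
BNIP3: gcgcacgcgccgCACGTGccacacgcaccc

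CKB, brain-type creatine kinase, rose in Caco-2 from 362, 409 and 389 to 4293, 3296 and 3297 and went from 117, 121 and 116 to 168, 148 and 160 in HT-29, a change of 3.23 against 0.43. The smaller CKB change in HT-29 was without overlap of the groups (edgeR FDR = 1.6e-05). CCL20, a chemokine, rose in Caco-2 from 1.72, 1.84 and 1.23 to 27.1, 26.0 and 25.2 and was at 3.08, 5.43 and 6.46 and then 7.25, 8.11 and 5.91 in HT-29, which overlapped. CKB left the class with TMM within each line, and CCL20 left it with that scaling, with DESeq2 and without HT-29 Control replicate 2, HT-29 Control replicate 3 or HT-29 CoCl2 replicate 3, since its HT-29 change of 0.47 was near the limit. With OD in Caco-2, BNIP3 averaged 271 CPM and CKB 2867, also above the shared controls. In HT-29 with OD, the log2 change was 1.00 for BNIP3, 0.93 for CCL20 and -0.36 for CKB.

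The genes lowered in Caco-2 alone included a pair of glycosylation enzymes. GALNT5, which starts O-linked chains, went from 94.7, 93.5 and 99.3 to 23.0, 24.2 and 26.1 in Caco-2 and was at 5.75, 5.31 and 4.68 and then 5.44, 6.57 and 5.83 in HT-29, overlapping. ST3GAL1, a sialyltransferase that caps such chains, went from 9.43, 9.87 and 8.45 to 1.72, 2.57 and 1.75 in Caco-2, while HT-29 held 548 to 608 and then 615 to 689 CPM. The interactions were 2.17 (SE 0.15) and 2.36 (SE 0.18). CYP4F12, a cytochrome P450, and HSPA1L, a heat shock chaperone, fell by 1.94 and 1.66 in Caco-2 and were at 0.04 and 0.30 in HT-29. HSPA1L is closely related to its neighbours HSPA1A and HSPA1B, so its reads are uncertain.

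CArG boxes were searched in the 250 bases before the RefSeq start of every gene, with 989 of 1371 members matched. They stood in 0.990% of the windows of 11717 matched genes tested, and in 1.14% of all 27305 windows. Among the opposite genes lower in HT-29, 3 of 31 windows held one (9.68%), and among genes higher in Caco-2 only, 5 of 88 (5.68%). The other classes held 0 of 16, 0 of 281, 4 of 515 and 1 of 58. In the ERK and AP-1 list, 1 of 15 windows held one (6.67%), that of EGR1. These counts are small and were not tested. The 30-base stretches of the first set other than EGR1, with the box in capitals, lie at chr4:83114870-83114899 (minus) and chr1:206507487-206507516 (plus), and those of FHL2 and IGFBP2, examples from the second, at chr2:105438595-105438624 (minus) and chr2:216632578-216632607 (plus).
PLAC8: aagaaacacaCCTTATTTGGcaagagatat
RASSF5: ggctgcggttCCTTTAAAGGcgcgctggtg
FHL2: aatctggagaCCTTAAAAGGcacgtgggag
IGFBP2: gaagacagCCATAAATGGccttaccccaga
PLAC8, a cysteine-rich protein, changed by 1.86 and -1.92 in Caco-2 and HT-29, and RASSF5, a Ras effector, by 1.09 and -1.59. FHL2, a LIM-domain cofactor, changed by 2.00 and 0.01, and IGFBP2, an insulin-like growth factor binding protein, by 1.86 and -0.46. The hypoxia core ACGTG, on either strand, stood in 22.8% of windows of genes tested and in 11 of 21 windows of hypoxia targets (52.4%). The antioxidant core TGACNNNGC stood in 12.3% and in 5 of 17 NRF2 target windows (29.4%), and TGACGTCA in 2.65% of genes tested. Among the opposite genes lower in HT-29, 7 of 31 windows held the hypoxia core (22.6%) and 1 of 31 held TGACGTCA (3.23%). Among genes higher in Caco-2 only, 18 of 88 held the hypoxia core (20.5%).

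Nearly all of the 25 hypoxia targets rose in both lines. Of the 23 detected in both lines 2 were members, beside 1371 of 12844 genes detected in both lines. Of 25, CoCl2 raised 24 in Caco-2 and 23 in HT-29, beside 9.35% and 14.2% of all genes tested. Their medians were 2.90 and 3.08. The interaction was above for 8 and below for 6 (2 below with limma-trend), beside 7.79% and 13.8% of all genes tested. SLC2A1, the glucose transporter GLUT1, changed by 3.20 and 3.08, PDK1, which restrains pyruvate oxidation, by 3.34 and 2.82, and GAPDH by 2.74 and 2.49, and none of their interactions was called. BNIP3 was the only target in the Caco-2-only class and CA12, a carbonic anhydrase at 0.03 and 1.13, the only one in the HT-29-only class. NDRG1, a stress-induced gene, rose in both, by 2.87 and 5.87, with an interaction of 3.00. CA9, a carbonic anhydrase, was at 0 in all Caco-2 controls and at 0.492, 0.499 and 0.796 CPM with CoCl2, at least 3.12-fold higher against the floor, while in HT-29 it went from 45.7, 50.0 and 51.1 to 274, 251 and 255. On the log2 scale that bound is 1.64 and lies under the HT-29 change of 2.41, so the bound by itself does not settle the direction of the CA9 difference. It takes 3 counts in each control library, whereas all of these held 0. The edgeR interaction for CA9 was called (FDR = 0.012), with a size that depends on the prior count. Of 17 glycolysis genes 1 was above and 0 below, with medians of 2.34 and 2.63.

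NRF2 targets, the antioxidant and detoxification genes, were raised in Caco-2 for 17 of 23 and in HT-29 for 21, with 1 lowered in each. The interaction was above for 19 of 23 and below for 0, beside 7.79% and 13.8% of all genes tested. The list medians were 1.5 and 3.36, and 2 were HT-29-only members, AKR1C3 and CBR1. Of genes detected in both lines, 2.92% were HT-29-only higher. HMOX1, which degrades haem, went from 15.3, 18.9 and 18.1 to 641, 564 and 604 CPM in Caco-2 and from 5.82, 4.8 and 4.8 to 2134, 2013 and 2005 in HT-29 (interaction 3.54, SE 0.13). ABCC2, an exporter of conjugates, changed by 1.5 and 5.85, and FTL, the ferritin light chain, by 1.93 and 3.71. TXNRD1, thioredoxin reductase, changed by 2.43 and 3.56, and its interaction of 1.13 became 0.93, within the limit, with library size alone. AKR1C1 changed by 1.25 and 5.18, and reads of AKR1C1, AKR1C2 and of FTL and its processed copies could be shared. Metallothioneins went the other way, with 4 of 10 genes of their list below and 0 above and medians of 4.60 and 2.50; 2 were below with limma-trend. MT2A, a metal-binding protein, rose by 6.89 in Caco-2 and 4.40 in HT-29; its family members are near-identical.

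**Figure D5:**
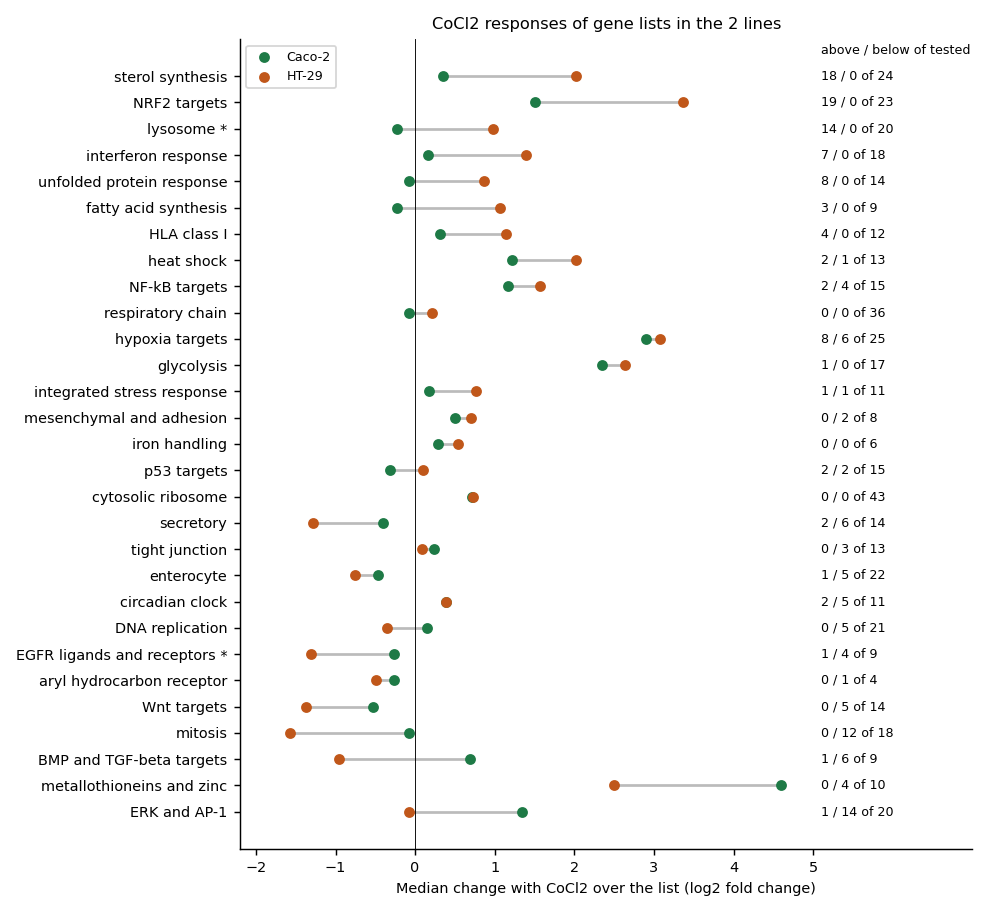
Median log2 fold change with CoCl2 of each gene list, Caco-2 in green and HT-29 in orange, with the number of interaction calls above and below among members tested at right. An asterisk marks lists chosen after their values here were seen. The other lists were also written with earlier results of these data known. Sterol synthesis (18 above, 0 below of 24) and NRF2 targets (19, 0 of 23) stand at the top and ERK and AP-1 (1, 14 of 20) at the bottom.

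The medians by list show that several stress and immune lists lay higher in HT-29. Over all genes tested, the interaction was above for 7.79% and below for 13.8%. In the unfolded protein response list 8 of 14 were above and 0 below, with medians of -0.07 and 0.86, but with library size alone only 3 were above. HSPA5, the chaperone BiP, changed by 0.69 and 1.75, and its interaction of 1.06 became 0.86 with library size alone and 0.98 without HT-29 Control replicate 1, both within the limit. In the interferon list 7 of 18 were above and 0 below, with medians of 0.16 and 1.40. MX2, an antiviral GTPase, was an opposite gene, at 1.14, 2.11 and 1.29 and then 0.246, 0.143 and 0.478 CPM in Caco-2, all low, and at 5.08, 8.97 and 7.13 and then 20.7, 44 and 28.7 in HT-29. NLRC5, the activator of HLA class I genes, was also opposite, at -1.29 and 1.19, and left the class with library size alone and without Caco-2 CoCl2 replicate 3 or HT-29 CoCl2 replicate 2. In its HLA class I list 4 of 12 were above and 0 below, with medians of 0.31 and 1.14, and 1 was above with limma-trend.

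Other lists had few calls or calls on both sides, to be read beside 7.79% above and 13.8% below over all genes tested. NF-kB targets had 2 of 15 above and 4 below (medians 1.17 and 1.57), circadian clock genes 2 of 11 above and 5 below (0.38 and 0.39), heat shock genes 2 of 13 above and 1 below (1.22 and 2.02), integrated stress response genes 1 of 11 above and 1 below (0.17 and 0.76) and p53 targets 2 of 15 above and 2 below (-0.32 and 0.10). Enterocyte genes had 1 of 22 above and 5 below (-0.46 and -0.75), secretory genes 2 of 14 above and 6 below (-0.40 and -1.28), and tight junction genes 0 of 13 above and 3 below (0.24 and 0.09). The single call of 4 aryl hydrocarbon receptor genes was below, both calls of 8 mesenchymal and adhesion genes were below, and 6 iron handling genes had 0. Among 43 cytosolic ribosome genes (medians 0.72 and 0.73) and 36 respiratory chain genes (-0.08 and 0.21), 0 interactions were called in either direction by edgeR, whereas DESeq2 called 2 respiratory chain genes above. CLDN2, a pore-forming claudin, fell in HT-29 only, at -0.41 and -3.23, and OCLN, occludin, rose in Caco-2 only, at 1.15 and 0.12.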

How the data were processed

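For 18 mRNA libraries the deposited values were raw read counts, 1 row per gene, and log2 expression in another table. As given in the study's methods and the submitters' processing notes, single-end 75 nt reads were trimmed with cutadapt 2.10 and aligned with STAR 2.7.5b to GRCh38.p13; the counting tool and its use of strand are not given in the sources used here. The study's paper describes the Caco-2 cells, and HT-29 is known from the labels. The deposited log2 table was checked to be log2 of RPKM plus 1 scaled within each line, and served as an alternative only. CPM values were computed here with TMM-scaled library sizes.

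Groups came from the labels, and 0 sample columns were left without a sample. edgeR 4.0.16 in R 4.3.3 fitted 6 groups of 3 libraries (quasi-likelihood, TMM, filterByExpr); FDR is the Benjamini-Hochberg adjusted p over all 17921 genes tested, and SE is the log2 change divided by the root of F. Detected means a mean of at least 1 CPM in the Control or CoCl2 group of each line. Named genes are the 5 per class with the largest interaction among those with a mean count of at least 50 in 1 group and 20 in each line, no overlap of the groups in a responding line and, where possible, the same class with library size alone; genes of the lists are named besides, and a few genes are not reported here. The rule, members and lists were chosen with earlier results of these data known. The test was checked on simulated data in which few genes changed, as many upwards as downwards. The simulation was not built with a composition shift like that of the CoCl2 libraries, so it does not cover the dependence on scaling. Gene coordinates are GENCODE's on GRCh38, and promoters are RefSeq's on GRCh38.p14. Alternatives used DESeq2 1.42.0 and limma 3.58.1.

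The replicates were called biological by the submitters, without saying what separated them. No pair of replicates was closer than sampling noise (chi-square per degree of freedom 1.96 to 12.6). Intervals and floors (3 counts in each library) cover counting error only.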

Additional observations from a re-analysis of the deposited data

Results flagged for a closer look

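A response that differed between the lines by the test of the difference itself (the interaction in edgeR, FDR below 0.05 and a log2 difference beyond 1 in size) was found for 3875 genes. Some genes named above only in passing, as examples or list members, were called too and are not listed here. Listed here are 64 of the genes named above with a called interaction. They were named partly for the size of this difference, so the values describe them.

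Where the HT-29 change lay above the Caco-2 change, the interaction on the log2 scale was, for genes of large difference, COL4A1 10.52, RBPMS2 7.72, CYP4F3 5.26, PHEX 5.02, AKR1B1 4.73, TRPV3 4.59, MX2 4.38, ABCC2 4.35, CTSL 3.97, AKR1C1 3.93, EGF 3.85, HMOX1 3.54, PLPP3 3.50, SMPD1 3.50, ZNF114 3.39, HMGCS1 3.29, ACSS2 3.28, TMEM86B 3.10 and INSIG1 3.09, and for those of smaller difference NDRG1 3.00, PRDM1 2.88, LSS 2.68, IDI1 2.58, NEU1 2.50, NLRC5 2.48, ST3GAL1 2.36, GALNT5 2.17, FASN 2.04, CYP4F12 1.97, HSPA1L 1.96, FTL 1.78, TXNRD1 1.13 and HSPA5 1.06.

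Where the HT-29 change lay below the Caco-2 change, the interaction was, for genes of large difference, UNC93A -7.11, DKK1 -6.24, EGR1 -5.35, EREG -5.22, MAPT -5.16, DUSP6 -5.08, ATP8B2 -5.07, AREG -4.74, CXCR4 -4.70, EDN1 -4.67, ID1 -4.66, SOSTDC1 -4.63, EVL -4.22, FOS -4.19, CA9 -3.94, HBEGF -3.92, CCND1 -3.86, LINC02038 -3.60, CCL20 -3.55 and PTGS2 -3.51, and for those of smaller difference MYC -3.21, BNIP3 -3.18, DUSP4 -2.82, CKB -2.80, FOSL1 -2.52, MT2A -2.49, TPX2 -2.0, CENPE -1.95, CCNB1 -1.46, TOP2A -1.27 and JUN -1.27.

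The fitted values of COL4A1, UNC93A, AKR1B1, LINC02038 and CA9 rest on a group with at most 3 counts in each library and depend on the prior count. For CA9 the floor bound by itself does not settle the direction either, since it puts the Caco-2 change at 1.64 or more on the log2 scale, beside an HT-29 change of 2.41. No group held more than 3 replicates, too few for an outlier test of single libraries.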

How the results depend on the processing

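Of 3875 called interactions, 19 changed sign under some alternative, 18 with limma-trend and 1 without Caco-2 CoCl2 replicate 3, and 0 were called on the other side. Of the 64 genes with a called interaction listed in the section above, 58 kept the call under every alternative that tested them. Limma-trend tested 49 of the 64, of which 45 kept it. Genes named only in passing, as examples or list members, were not followed one by one. With limma-trend run on the authors' log2 table, which tested 11354 genes kept by the authors in both lines, there were 1304 interaction calls (51.1% of them above), 864 responses in Caco-2, 2300 in HT-29, 16 opposite genes, 548 HT-29-only and 84 Caco-2-only genes. In it the interactions of ST3GAL1 (0.93), CYP4F12 (0.90), HSPA1L (0.90) and JUN (-0.93) fell within the limit; the pseudocount of 1 shrinks changes of low genes. Each list count, above or below, was compared under each alternative. Of these comparisons 72 moved by more than 1.5 times and 1030 did not. Most alternatives left out 1 library, and a count that stayed at 0 was taken as not moved, so these totals do not give the share of unstable lists. More moved with limma-trend than with any other scaling or model. With it the counts below fell from 6 to 3 for BMP and TGF-beta targets, from 5 to 1 for Wnt targets, enterocyte and circadian genes each, from 6 to 1 for secretory genes, from 6 to 2 for hypoxia targets, from 4 to 2 for metallothioneins and from 5 to 2 for DNA replication genes, and the count above from 4 to 1 for HLA class I. Without a limit on the log2 difference 8916 interactions passed. With a limit of 1 in the other line there were 1638 HT-29-only genes, and with 0.25 there were 611 HT-29-only and 115 Caco-2-only genes.

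Leaving out 1 library at a time gave 3706 to 3880 interaction calls, 4135 to 4390 responses in Caco-2, 6901 to 7234 in HT-29, 78 to 83 opposite genes, 1060 to 1090 HT-29-only and 201 to 225 Caco-2-only genes. With library size alone CoCl2 raised 1013 and lowered 3944 genes in Caco-2 (1675 and 2558 with TMM) and raised 1364 and lowered 6722 in HT-29 (2538 and 4470), and 240 genes were HT-29-only higher. There 29 of 52 and 12 of 25 opposite genes, 155 of 375 and 418 of 702 HT-29-only genes and 46 of 121 and 50 of 96 Caco-2-only genes stayed in their class. With DESeq2, 47 of 52, 25 of 25, 365 of 375, 573 of 702, 92 of 121 and 94 of 96 stayed. With limma-trend 15 of 52 and 1 of 25 (35 and 11 tested), 230 of 375 and 229 of 702 (336 and 541 tested), and 49 of 121 and 23 of 96 (100 and 77 tested) stayed.

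Replicate numbers did not pair the samples: deviations of same-numbered Control and CoCl2 libraries correlated at -0.036 to 0.035. With a replicate block there were 3805 interaction calls, 78 opposite, 1072 HT-29-only and 217 Caco-2-only genes. With 3 replicates a group and a control group near 0 counts, the size of a difference was limited by depth for COL4A1, UNC93A, AKR1B1, LINC02038 and CA9.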

Other observations

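Beside the members, 420 genes changed in the same direction in both lines and by more in HT-29, against 45 by more in Caco-2. Values beyond the comparison of the lines came from the OD libraries, which shared the controls. FOS was at 2.20 on the log2 scale with OD in Caco-2 and -1.82 in HT-29, beside 4.23 and 0.04 with CoCl2. JUN was at 1.56 and -0.94 with OD, beside 3.17 and 1.90, and MX2 at -1.36 and 2.89 beside -2.25 and 2.13. NLRC5 averaged 23.7 CPM with OD in HT-29, above its 4.47 to 7.91 with CoCl2. HMOX1 averaged 23.9 in Caco-2 and 12.9 in HT-29 with OD, far from its level with CoCl2.

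In the leukocyte marker list, 1077 to 1173 CPM in HT-29 came with LYZ, at 14178 to 28968 counts, while PTPRC, the defining marker, was at 0 to 2 counts.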
